A study of Mus musculus with 2 samples.

Results

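The interleukins and interleukin receptors described here are the genes whose symbol begins with Il and a digit, apart from the interleukin 2, 3, 4, 5, 9, 10 and 13 cytokines, the receptors of interleukins 2, 4, 7, 12 and 18, and the Th17 cytokines with their interleukin 23 receptor, which define or feed the T helper lineages themselves. The rule used symbols and no measured value. It found 56 of the 17501 named genes on the arrays, of which 28 encode ligands, antagonists or binding proteins, 27 encode receptor chains and 1, Il4i1, encodes an enzyme. Of the 22 names left out by the rule, 21 had a named probe. Il1rl1, Il11ra1, Il11ra2, Il20rb and Il4i1b fit the rule but had no named probe, and they were not analysed here.

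The study used 2 two-colour microarrays. The first, called the Th1 array here, carried RNA of Th1-polarized lymphocytes labelled with Cy5 and RNA of Th0-polarized lymphocytes labelled with Cy3. The second, the Th17 array, carried RNA of Th17-polarized lymphocytes with Cy5 and of Th0-polarized lymphocytes with Cy3. The source of all of them was a TRP-1 mouse, a line named for a melanocyte antigen that its T cells recognise. The polarizing agents, the time in culture, the age of the mice, how many were used and how pure the cells were are not given in the sources used here. Each comparison rests on 1 array, so no value has a replicate, no test was possible, and the number of arrays limits the precision of every statement below.

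Interleukins are secreted proteins that leukocytes and other cells use to signal to each other, and each is read by a receptor built from a private chain and, often, a chain shared within a family. In the interleukin 1 family, Il1a and Il1b act through Il1r1 and its accessory chain Il1rap, while the antagonist Il1rn and the decoy receptor Il1r2 hold the signal down. Interleukin 6 together with TGF-beta starts the Th17 fate, and interleukins 1 and 23 are known to sustain it. Interleukin 12 drives the Th1 fate and shares its Il12b chain with interleukin 23.

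Values are log2 ratios of the channels as deposited, averaged over the probes of a gene. The titles and dyes name the polarized cells over Th0 cells, but the table states no numerator, and genes of the lineage cytokines took the other side: Ifng, the Th1 cytokine gene, lay at −2.02 on the Th1 array, and Il17a, the gene of the cytokine that names Th17 cells, at −5.37 on the Th17 array. The direction is therefore unsettled. In the order of the titles a negative value would stand for less transcript in polarized than in Th0 cells, and in the reverse order for more. Below, a gene is placed by its sign and by whether it lay on the side of these lineage cytokines, which holds under either reading. Sizes do not depend on the choice, and in mixed RNA fewer cells of a type and less RNA per cell cannot be told apart.

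The stretches of promoter below belong to the 3 ligand genes with the largest differences between the arrays, Il1b, Il1a and Il6, and to Il1r1, the receptor gene with the lowest value on the Th17 array. Il1r1 has 2 annotated starts. Each sequence is the 250 bases before an annotated start, from RefSeq on build GRCm38.p6, written 5′ to 3′ on the gene's strand. Capitals mark matches, on either strand, to TATAAA (a box common before start sites, called the TATA box), GGGANNTTC (part of the NF-kappaB motif), TGANTCA (AP-1), TTGCNNAA (C/EBP), TTCNNNGAA (STAT) or AGGTCA (ROR half-site).
Il1a, chr2:129309973-129310222, minus strand: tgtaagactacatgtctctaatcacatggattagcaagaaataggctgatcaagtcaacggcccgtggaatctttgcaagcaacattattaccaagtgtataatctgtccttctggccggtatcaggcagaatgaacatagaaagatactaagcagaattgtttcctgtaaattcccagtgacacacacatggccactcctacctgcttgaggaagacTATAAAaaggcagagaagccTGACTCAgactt
Il1b, chr2:129371140-129371389, minus strand: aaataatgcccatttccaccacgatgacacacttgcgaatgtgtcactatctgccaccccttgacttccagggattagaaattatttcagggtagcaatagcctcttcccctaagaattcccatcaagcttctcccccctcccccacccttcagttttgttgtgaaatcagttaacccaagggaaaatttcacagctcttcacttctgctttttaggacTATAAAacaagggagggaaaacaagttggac
Il6, chr5:30012864-30013113, plus strand: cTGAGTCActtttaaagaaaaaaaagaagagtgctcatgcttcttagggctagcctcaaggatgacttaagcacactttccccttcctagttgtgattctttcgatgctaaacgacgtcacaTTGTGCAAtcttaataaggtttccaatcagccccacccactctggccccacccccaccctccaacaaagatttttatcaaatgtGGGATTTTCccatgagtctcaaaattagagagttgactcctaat
Il1r1, upstream start, chr1:40224830-40225079, plus strand: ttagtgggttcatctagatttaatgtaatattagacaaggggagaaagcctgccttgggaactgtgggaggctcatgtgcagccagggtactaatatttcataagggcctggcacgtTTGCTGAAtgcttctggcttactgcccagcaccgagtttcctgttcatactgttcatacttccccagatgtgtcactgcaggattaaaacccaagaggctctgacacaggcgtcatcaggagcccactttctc
Il1r1, downstream start, chr1:40266336-40266585, plus strand: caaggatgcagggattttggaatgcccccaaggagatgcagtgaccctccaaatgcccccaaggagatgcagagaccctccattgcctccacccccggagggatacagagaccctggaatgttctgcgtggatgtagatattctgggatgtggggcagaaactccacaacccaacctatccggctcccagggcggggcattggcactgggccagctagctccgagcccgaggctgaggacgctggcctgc

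Matches differed among these windows. The Il1a and Il1b windows each held a TATA box, beginning 32 and 31 bases before the start, and the Il1a window also held the AP-1 letters TGACTCA 12 bases before it. The Il6 window held the NF-kappaB letters GGGATTTTC 44 bases before the start, C/EBP letters on the opposite strand at 128 bases and AP-1 letters TGAGTCA at 249 bases. The upstream window of Il1r1 held C/EBP letters at 133 bases. Among all 32851 windows of this length, 12.4% held the TATA letters, 3.23% the NF-kappaB letters, 6.75% the AP-1 letters and 9.56% the C/EBP letters. Windows were found for 43 of the 56 genes, 53 windows in all, of which 15.1% held the TATA letters, 7.55% the NF-kappaB letters, 22.6% the AP-1 letters and 17% the C/EBP letters. For the STAT letters the shares were 9.43% of these windows and 7.02% of all windows, and for the ROR half-site 11.3% and 14%. A match describes letters and not binding.

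As deposited, most of these genes lay slightly on the side of the lineage cytokines. On the Th1 array 40 of the 56 were below 0 (71.4%, against 57.4% of all named genes), with a median of −0.27 against −0.08 for all genes. On the Th17 array 43 were below 0 (76.8%, against 53.7%), with a median of −0.33 against −0.03. Ligands and receptor chains had medians of −0.13 and −0.30 on the first array and of −0.31 and −0.35 on the second. These signs depend on where 0 is set: taking each array's most repeated value as equal signal in both channels, which adds 0.85 and 0.43 to the values of the Th1 and the Th17 array, turned the medians of ligands and receptor chains to 0.72 and 0.55 on the Th1 array and to 0.12 and 0.08 on the Th17 array. With 0 set there, 48 of the 56 genes lay above 0 on the first and 31 on the second. That placement also put all 14 measured control genes above 0 on the Th1 array, with a median of 1.09. On the Th17 array it put 13 of them above 0, with a median of 0.40. As deposited, 12 and 5 control genes lay above 0, with medians of 0.25 and −0.03. Centring on control genes moved the median of all genes to −0.32 on the Th1 array and to −0.01 on the Th17 array. Centring on equal signal moved it to 0.77 and 0.39.

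The Th1 array put 6 of the 56 genes at least 2-fold from equality, or 10.7%, beside 10.2% of all named genes, so their share was near the background. Of these, 5 were negative and 1 was positive, where the shares of all genes were 6.92% and 3.27%. Centred on control genes the split was 11 and 1, beside 11.6% and 1.85% of all genes. Centred on equal signal it was 0 and 10, beside 1.7% and 29.8% of all genes. On the Th17 array 10 genes passed (17.9%, beside 8.42% of all genes), 9 on the negative side (5.52% of all genes) and 1 on the positive (2.9%). Centred on equal signal, 4 negative and 3 positive genes passed there, beside 2.78% and 8.17% of all genes. Under each of the 4 placements of 0 (as deposited, on the median of all genes, on control genes and on equal signal), 5 of the 10 passed, namely Il1r1, Il1b, Il1a, Il16 and Il23a. Each other placement raised all values of this array, by at most 0.43. Il23a, at 1.01 with 1 probe, could therefore only move away from 0. The 4 negative genes lay far enough below −1 as deposited, so these passes add no independent support. The share of all genes passing under every placement was not counted. Il1rapl2 and Il13ra2 passed on both arrays, which is 3.57% of the 56 genes beside 3.75% of all genes. On neither array nor in the difference between them passed 40 of the 56, a count that was not made over all genes. Those 40, 21 receptor chains and 19 ligands, held values from −0.95 to 0.97.

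**Figure D1:**
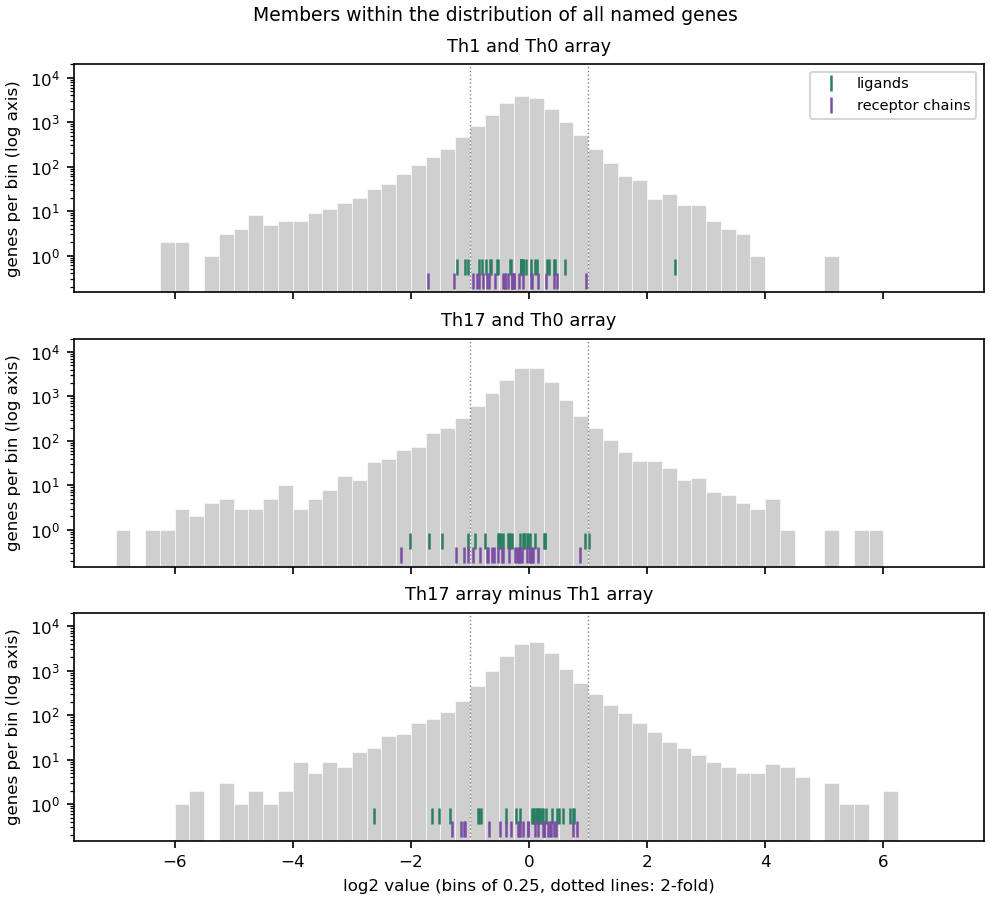
Histograms of all 17501 named genes (grey bars, genes per bin of 0.25 on a log axis) against their log2 value on the Th1 array, on the Th17 array and in the difference of the 2 arrays, with ticks for the 28 ligands and 27 receptor chains and dotted lines at 2-fold. Nearly all ticks sit near the centre of the grey distribution. Il6 stands to the right on the first array, at 2.47, and Il1b, Il1r1, Il1a and Il16 to the left on the second, from −2.17 to −1.48.

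Il1b, which encodes the secreted inflammatory cytokine interleukin 1 beta, gave the widest contrast between the arrays among these genes. The Th1 array read 0.61 and the Th17 array −2.01 (4.02-fold). It lay on the side of Il17a on the second array and opposite to Ifng on the first. Among 17501 genes it ranked 220 from the lowest on the Th17 array and 1550 from the highest on the Th1 array. The value rests on 1 probe.

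Il1a, the gene of the membrane-bound and released interleukin 1 alpha, moved little on the first array and far on the second. It lay at −0.05 on the Th1 array and at −1.69 (3.23-fold) on the Th17 array. Its 2 probes did not give the same size: they read −0.57 and −2.81 on the Th17 array, and −0.16 and 0.06 on the Th1 array. Both probes lay on the side of Il17a. Il1rn, the gene of the receptor antagonist, lay at 0.30 and −1.04 (2.05-fold), with probes at −0.49 and −1.59 on the Th17 array. The agonist genes Il1a and Il1b and the antagonist gene Il1rn thus lay on 1 side of that array, each at least 2-fold from 0 as deposited. Centred on equal signal, Il1a and Il1b kept that distance and Il1rn, at −0.61, did not.

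The other genes of the interleukin 1 family ligands did not pass on the Th17 array. Il18, a cytokine that amplifies interferon gamma production, lay at −0.10 and −0.50 on the Th1 and the Th17 array, and Il18bp, which neutralises it, at −0.31 and −0.16. Il33, an alarm cytokine of barrier cells, lay at −0.53 and −0.02. Among the interleukin 36 group, the agonist genes Il1f6, Il1f8 and Il1f9 lay at −1.03, 0.04 and −0.73 on the Th1 array and at −0.74, 0.27 and −0.34 on the Th17 array, and the antagonist gene Il1f5 at −0.84 and −0.08. Il1f10, a related gene, lay at 0.33 and −0.51. Il1f6 was the family's 1 ligand gene past 2-fold on the Th1 array.

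Il1r1, the signalling receptor for both forms of interleukin 1, had the lowest value of all 56 genes on the Th17 array. It lay at −2.17 (4.52-fold) there, rank 173 from the lowest, and at −0.87 on the Th1 array. Its probes read −3.20 and −1.15 on the Th17 array and −1.01 and −0.73 on the Th1 array, so all 4 readings were on the side of the lineage cytokines, with unequal sizes on the second array. The decoy receptor gene Il1r2, with 1 probe, lay at 0.47 and −0.63. The accessory chain gene Il1rap lay near 0 on both arrays, at −0.26 and −0.12 over 6 probes, whose values ran from −1.41 to 0.46 on the first and from −0.64 to 0.20 on the second.

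Of the remaining receptor-like genes of this family, Il1rl2, the receptor of the interleukin 36 cytokines, lay at −0.45 and −0.83 on the Th1 and the Th17 array. Il1rapl1 and Il1rapl2, relatives best known from neurons, lay at −0.26 and 0.07 and at −1.70 (3.26-fold) and −1.24 (2.37-fold). Il1rapl2 had the lowest value of the group on the Th1 array. Centred on equal signal it lay at −0.85 and −0.82 and passed on neither array.

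**Figure D2:**
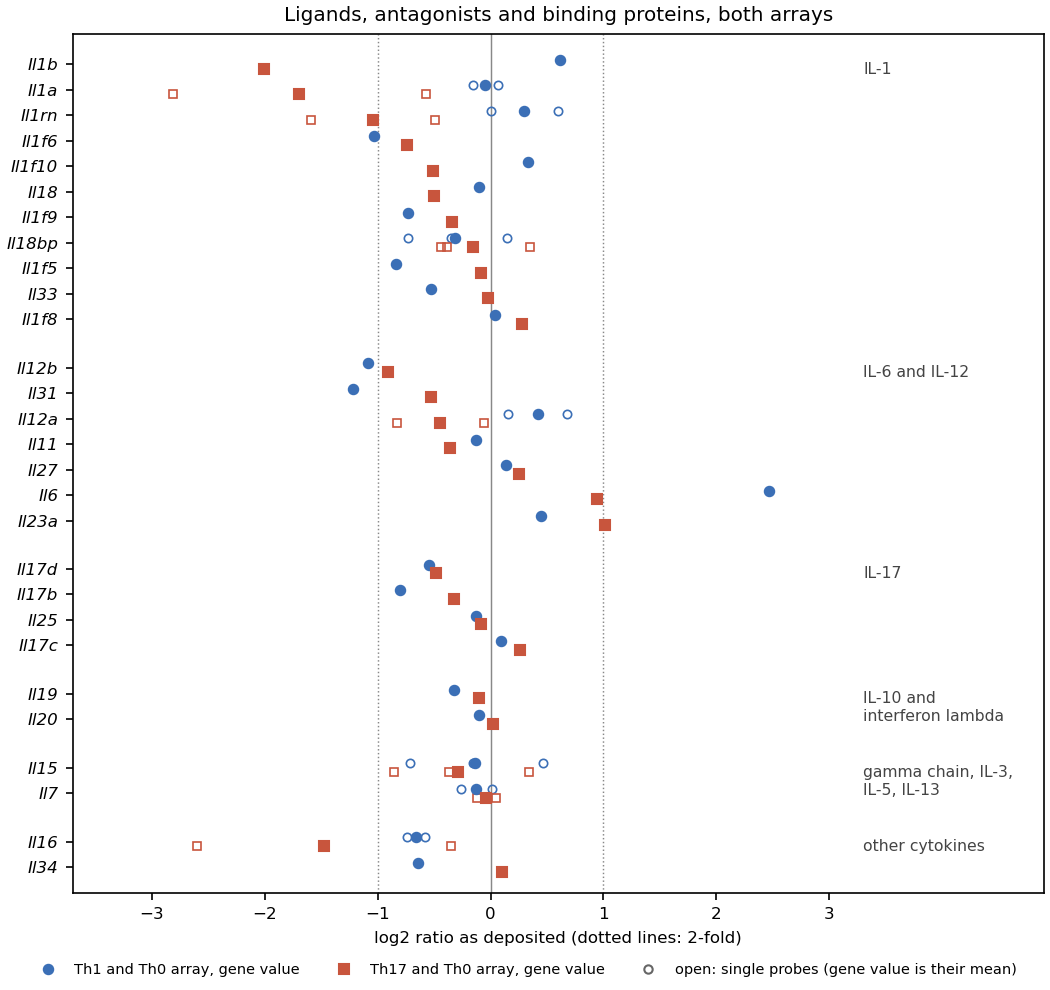
Log2 ratios as deposited (horizontal axis) of the 28 ligand, antagonist and binding protein genes on the Th1 array (circles) and on the Th17 array (squares), grouped by family, with filled symbols for the gene and open symbols for single probes. Il1b, Il1a, Il1rn and Il16 lie beyond the dotted 2-fold line to the left on the Th17 array, and Il6 at 2.47 lies farthest to the right, on the Th1 array.

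Il6, the gene of the cytokine that cooperates with TGF-beta in Th17 induction, lay farthest from 0 of all 56 genes, and it did so on the Th1 array. It read 2.47 (5.54-fold) there, rank 45 from the highest of 17501 genes, and 0.94 (1.92-fold) on the Th17 array, rank 556 from the highest. On both arrays it lay opposite to the lineage cytokines. It was the 1 gene of the group past 2-fold on the Th1 array under each of the centrings tried, and it has 1 probe.

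Its receptor genes did not pass 2-fold as deposited. Il6ra, the binding chain, lay at 0.03 and 0.01 on the Th1 and the Th17 array over 3 probes, and Il6st, the signalling chain gp130 shared with other cytokines of the family, at −0.95 and −0.60 over 2 probes. Il6 and Il6st thus lay on opposite sides of both arrays. Centred on control genes Il6st passed on the Th1 array, at −1.19, and centred on equal signal it lay at −0.10 and −0.17.

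The interleukin 12 and 23 chains did not move together. Il23a, the chain private to interleukin 23, lay at 0.44 and 1.01 (2.02-fold) on the Th1 and the Th17 array, opposite to Il17a. It has 1 probe and was the 1 gene of the group past 2-fold on the positive side of the second array. Il12b, the chain shared by interleukins 12 and 23, lay at −1.09 and −0.91, and Il12a, private to interleukin 12, at 0.42 and −0.45, with probes at −0.83 and −0.06 on the Th17 array. For comparison, Il23r, the receptor chain of interleukin 23, lay at −1.02 and −1.88. Il12rb2, a receptor chain of interleukin 12, lay at −0.59 and 1.01.

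Among the others of this family, Il27, a cytokine gene that restrains Th17 responses, lay at 0.14 and 0.25 and its receptor gene Il27ra at −0.40 and −0.71. Il31, an itch-related cytokine gene, lay at −1.22 (2.33-fold) and −0.53, and Il31ra at −0.36 and 0.01. Il11 lay at −0.13 and −0.36.

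On the Th17 array the receptors that read interleukin 17 lay closer to 0 than the cytokine genes themselves. Beside Il17a at −5.37 and Il17f at −2.38 on the Th17 array, Il17ra and Il17rc, which form their receptor, lay at −0.46 and −0.45 there. On the Th1 array the receptor genes lay at −0.29 and −0.30 and the cytokine genes at 0.29 and 0.06. Il17re, the receptor chain for interleukin 17C, was the 1 family receptor past 2-fold. It lay at 0.05 on the Th1 array and at −1.10 (2.14-fold) on the Th17 array, where its probes read −1.92 and −0.28. Il17rb, the receptor chain for interleukin 25, lay at −0.27 and −0.17, and Il17rd at −0.57 and −0.16. The related ligand genes Il17b, Il17c, Il17d and Il25 ranged from −0.80 to 0.09 on the first array and from −0.48 to 0.27 on the second, and 0 of the 4 passed.

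Receptors of the interleukin 10 and 22 group lay on both sides. Il10ra, the private chain of the interleukin 10 receptor, lay at 0.97 (1.96-fold) and 0.86 (1.81-fold) on the Th1 and the Th17 array, just under 2-fold on both and opposite to the lineage cytokines. Il10rb, the chain shared by the receptors of interleukins 10 and 22, lay at 0.15 and −0.94 (1.92-fold). Il22ra1, the private receptor chain of interleukin 22 found mainly on epithelial cells, lay at −0.41 and −0.16, and Il22ra2, a soluble decoy for it, at −0.78 and −0.52, beside −2.53 and −5.79 for Il22. Il20ra lay at −0.68 and −0.70 over 2 probes. The ligand genes Il19 and Il20 lay between −0.32 and 0.025 on both arrays.

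The next group joins receptors of the common gamma chain family with those of interleukins 3, 5 and 13. In it Il13ra2, a decoy receptor for interleukin 13, lay at −1.28 (2.42-fold) and −1.04 (2.06-fold) on the Th1 and the Th17 array. The signalling chain Il13ra1 lay at 0.43 and −0.24. Centred on equal signal Il13ra2 lay at −0.43 and −0.61 and passed on neither. Il9r, the interleukin 9 receptor chain, lay at −0.85 on the Th1 array, exactly the most repeated value of that array, and at −0.03 on the other. Its Th1 array reading met the criterion used here for very low signal, a whole-number ratio with a weaker channel of at most 5 units. Equal signals of any size meet that criterion, so the match does not show that the Il9r signal was low. Il5ra, the eosinophil interleukin 5 receptor chain, lay at −0.71 and 0.04, and Il3ra, the interleukin 3 receptor chain of basophils and progenitors, at 0.29 and −0.21. Il21r, the receptor of interleukin 21, lay at −0.17 and −0.35, beside −1.23 and −4.17 for Il21.

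Il7 and Il15, survival cytokines of T cells made mainly by other cells, lay at −0.13 and −0.04 and at −0.13 and −0.29 on the Th1 and the Th17 array. Il15ra, which presents interleukin 15, lay at −0.10 and 0.15 over 6 probes, whose values ran from −0.48 to 0.21 and from −0.26 to 0.44.

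Il16, a chemoattractant for CD4 T cells, lay at −0.66 and −1.48 (2.78-fold), but its 2 probes read −2.596 and −0.35 on the Th17 array. The first of these readings met the same criterion for very low signal, which larger signals in the same ratio would also meet. Il34, a ligand of the macrophage colony-stimulating factor receptor, lay at −0.65 and 0.10. Il4i1, a secreted enzyme that breaks down aromatic amino acids, lay at −0.12 and −1.01 (2.01-fold). It fell short of 2-fold under each of the 3 other centrings, between −0.98 and −0.58. It has a close copy, Il4i1b, with which a probe may share signal.

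**Figure D3:**
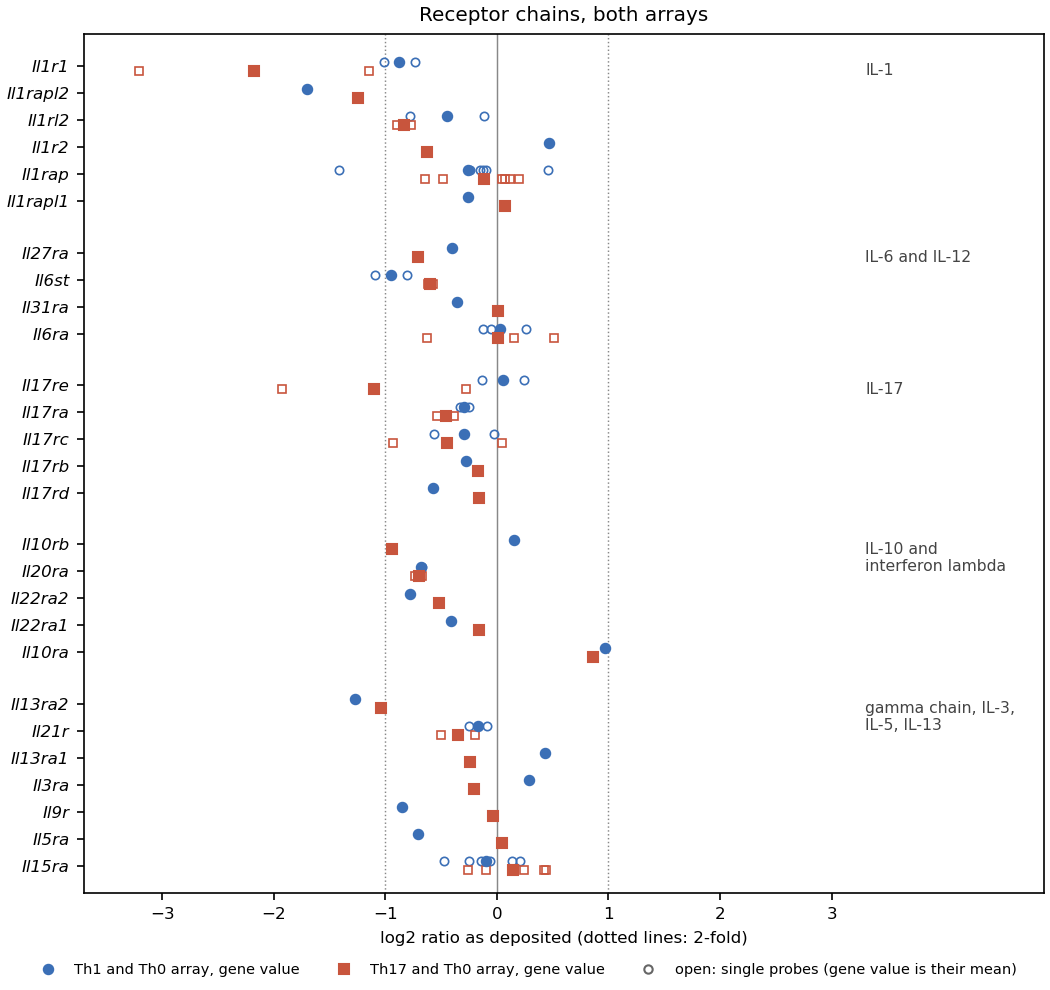
Log2 ratios as deposited (horizontal axis) of the 27 receptor chain genes on the Th1 array (circles) and on the Th17 array (squares), grouped by family, with filled symbols for the gene and open symbols for single probes. Il1r1, Il1rapl2, Il17re and Il13ra2 lie beyond the dotted 2-fold line to the left on the Th17 array, and Il10ra at 0.97 and 0.86 lies farthest to the right.

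Other genes of these pathways, among them further ligands and receptor chains, signalling proteins and target genes, were listed by family, and most did not pass 2-fold. Of 11 measured partners in the interleukin 1 pathway, 1 passed on each array: Irak3, an inhibitor of the pathway, at 1.46 on the Th1 array, and Casp1, the protease that matures interleukin 1 beta, at 1.18 on the Th17 array. Of 13 partners of the interleukin 6 and 12 group, Socs3, a feedback inhibitor of gp130 signalling, was the 1 past 2-fold on each array, at −1.27 and −1.54, on the side of the lineage cytokines. Of 8 interleukin 17 partners, 1 passed on the first array and 3 on the second. Lcn2, a target gene, lay at 1.58 and 2.38, Nfkbiz, a nuclear cofactor, at −0.60 and 1.19, and Cebpb, a transcription factor, at 0.84 and −1.11. Of 13 partners of the gamma chain and related receptors, 1 passed on the Th1 array and 2 on the Th17 array. Csf2rb2, an interleukin 3 receptor chain with 1 probe, lay at 2.48 and 1.16 and Il2rb at 0.91 and 1.65. The related chain Csf2rb, with 3 probes, lay at 0.44 and −0.18. The medians of the 4 partner lists ran from −0.19 to 0.16 on the Th1 array and from −0.32 to 0.16 on the Th17 array; centred on equal signal all 4 were above 0 on both arrays.

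Th17 and Th1 cells were set side by side as the log2 value of the Th17 array minus that of the Th1 array, which assumes that both arrays received like Th0 RNA, a point the labels do not settle. In this difference Il17a lay at −5.67 and Ifng at 1.19. By this measure 8 of the 56 genes passed 2-fold (14.3%, beside 8.14% of all genes). All 8 lay on the negative side, that of Il17a, where 3.61% of all genes lay, and 0 on the positive side, where 4.53% of all genes lay. Of the 8, 5 belong to the interleukin 1 family, which holds 11 of the 28 ligands and 6 of the 27 receptor chains.

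Il1b differed by −2.62 (6.15-fold), rank 63 from the lowest of 17501 genes, Il1a by −1.65 (3.13-fold), Il6 by −1.53 (2.88-fold), Il1rn by −1.34 (2.52-fold) and Il1r1 by −1.30 (2.47-fold). These 5 stayed at least 2-fold apart on the same side under each of the 4 placements of 0 that were tried. How many of all genes did so was not counted. Single probes were uneven: in the difference those of Il1a read −0.41 and −2.88, of Il1r1 −2.19 and −0.41 and of Il1rn −1.59 and −1.08. The other 3 genes were Il17re at −1.15, with probes at −2.16 and −0.15, Il1r2 at −1.10 and Il10rb at −1.09. These 3 fell short of 2-fold when the arrays were centred on control genes. Il1rap, the chain that Il1r1 needs for signalling, differed by 0.15. For Il6 the difference arose within the positive side, since both arrays read it above 0, whereas for Il1a and Il1r1 both read it below 0.

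On the opposite side of the difference, the highest values were those of Il9r at 0.81, Il1f5 at 0.76, Il5ra at 0.75 and Il34 at 0.75. The value of Il9r includes its Th1 array reading at the most repeated value, where the signal level is not known. Centred on control genes these 4 passed 2-fold, at 1.09, 1.03, 1.02 and 1.02. The split was then 5 negative and 4 positive genes, beside 2.33% and 7.82% of all genes. Centred on equal signal it was 13 and 0, beside 9.49% and 2.11% of all genes. The medians of ligands and receptor chains in the difference were 0.12 and −0.02, close to the 0.04 of all genes.

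**Figure D4:**
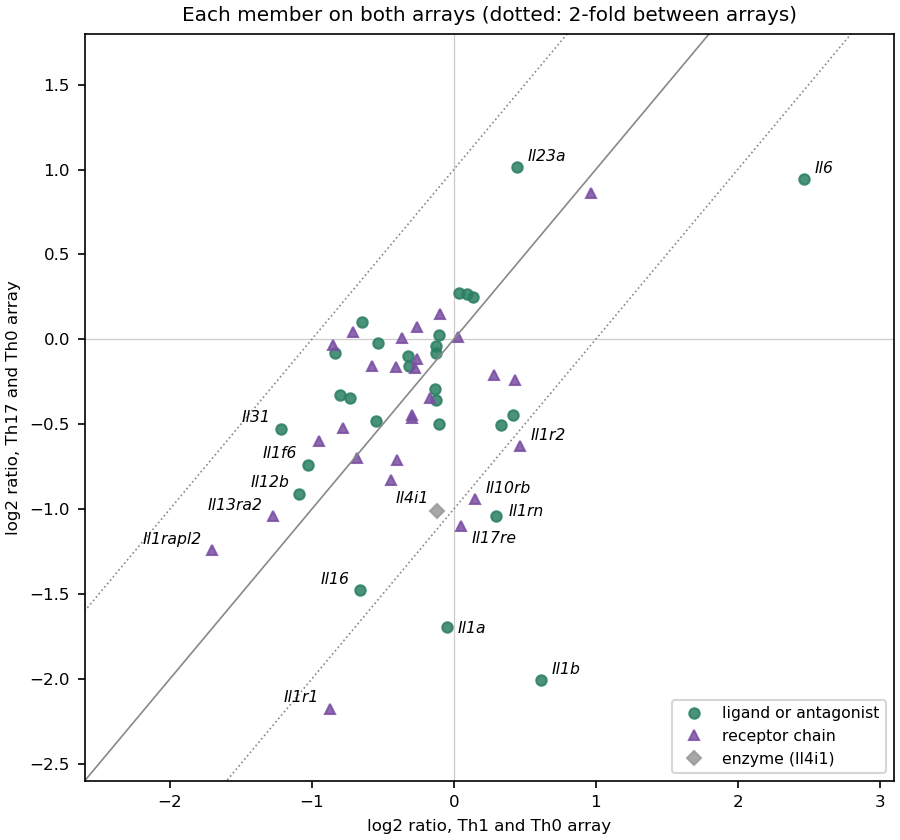
Log2 ratio on the Th17 array (vertical axis) against that on the Th1 array (horizontal axis) for each of the 56 genes, with a solid line of equal values and dotted lines at a 2-fold difference between the arrays. The 2 arrays may share Th0 RNA, so the slope of the cloud is not a result. The 8 genes below the lower dotted line are Il1b, Il1a, Il6, Il1rn, Il1r1, Il17re, Il1r2 and Il10rb, and no gene lies above the upper one.

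Several of these genes are neighbours in the genome, by the order of protein-coding genes in the GRCm38.p6 list. Il1r2, Il1r1, Il1rl2, Il1rl1, Il18r1 and Il18rap follow each other on chromosome 1. Along this run the Th17 array read −0.63, −2.17 and −0.83 for the first 3 and −0.57 and 0.58 for Il18r1 and Il18rap, which encode the interleukin 18 receptor, while the Th1 array read 0.47, −0.87, −0.45, −2.03 and −1.24. The lowest gene of the run was thus Il1r1 on 1 array and Il18r1 on the other. On chromosome 2, Il1a and Il1b are direct neighbours, and Il1f8, Il1f9, Il1f6, Il1f5, Il1f10 and Il1rn follow each other. In that second run, Il1rn was the 1 gene at least 2-fold below 0 on the Th17 array. Il19 and Il20 lie between Il24 and Il10 on chromosome 1, and their values near 0 stand beside −2.35 for Il10 on the Th1 array and −1.57 for Il24 on the Th17 array.

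Myeloid cells, mast cells and basophils are also known sources of Il6, Il1b and Il1rn, and their markers moved on these arrays. All 15 measured myeloid markers lay above 0 on the Th1 array, from 0.03 for Itgam to 2.98 for Fcer1g with a median of 1.57, and 12 passed 2-fold. All 11 mast cell and basophil markers lay above 0 there too, from 0.18 to 3.31 with a median of 2.30, and 10 passed. Centred on control genes, 1 gene of each list lay below 0. Il6, at 2.47, lay on the side of both lists on this array and so did Il1b, at 0.61, and Il1rn, at 0.30. The part of these cells in the Il6 value was not tested.

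On the Th17 array the same myeloid list ran from −2.04 for Cd14 to 2.98 for Mpo, with a median of 0.79, 7 markers past 2-fold above 0 and 1 below. The mast cell and basophil list ran from −0.05 to 2.31, with a median of 0.97 and 5 markers past 2-fold above 0. Il1b, Il1a and Il1rn lay opposite to both medians. Below 0 with them lay 4 of the 15 myeloid markers, among them Cd14, the monocyte receptor, while 11 lay above. Of the 11 mast cell and basophil markers, 1 lay below 0 and 10 above. In the difference between the arrays, the medians were −0.79 for myeloid and −1.31 for mast cell and basophil markers, the side on which Il1b, Il6 and Il1rn lay, with Cd14 at −2.88, Lyz2 at −2.23 and Ms4a2 at −2.35. The lists were mixed in this difference, as 5 of the 15 myeloid markers lay above 0, with Mpo at 1.72, and 3 of the 11 mast cell and basophil markers, with Tpsb2 at 0.56. Their part in the differences of the interleukin genes was not tested.

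Of 11 measured T cell genes, Cd4 among them, 11 lay below 0 on the Th1 array and 9 on the Th17 array, with medians of −0.69 and −1.0. With 0 placed at equal signal, 3 and 6 did. Of the CD3 chains, which define T cells, Cd3d lay at −1.43 and −1.001, Cd3e at −0.44 and 0.14 and Cd3g at −0.07 and 0.43. As deposited, 9 B cell markers had medians of −0.15 and −0.0008, and 1 of them, Cr2, passed 2-fold on each array, at −1.12 and −1.25. The 8 stromal and epithelial markers had medians of −0.23 and −0.0006, with the epithelial genes Epcam at 3.02 and 2.30, Krt8 at −0.26 and −0.30 and Krt18 at −2.43 and −0.43. Since the table gives ratios and no signal level, whether any marker or interleukin transcript was detected cannot be read from it.

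**Figure D5:**
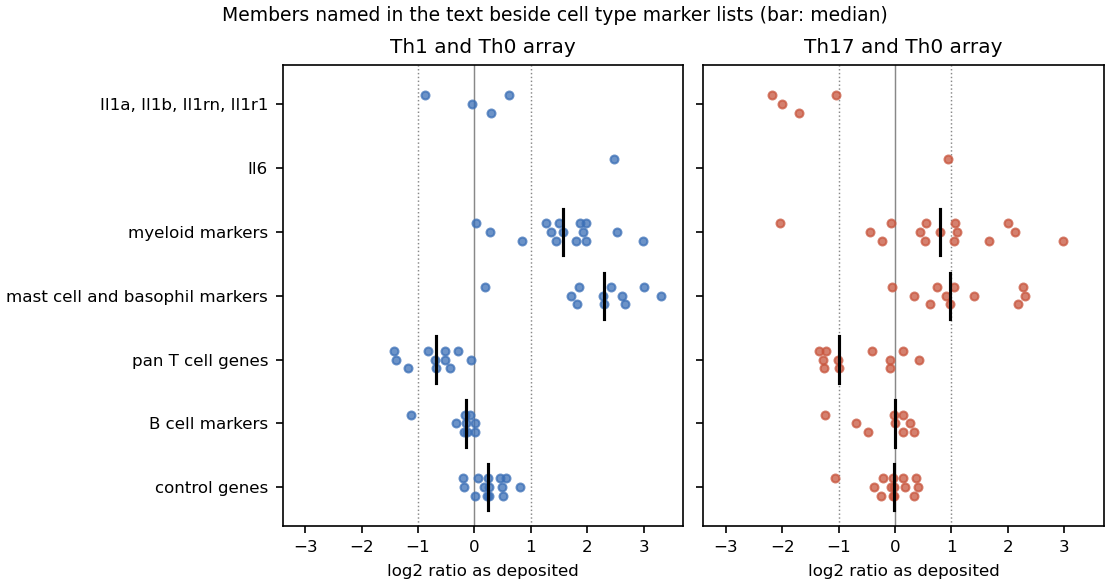
Log2 ratios as deposited (horizontal axis) on the Th1 array (left) and on the Th17 array (right) of the interleukin 1 genes Il1a, Il1b, Il1rn and Il1r1, of Il6, and of lists of cell type markers and control genes, with 1 point per gene and a bar at the median of each list. Il6 sits among the myeloid, mast cell and basophil markers on both arrays, and the 4 interleukin 1 genes lie left of the myeloid median of 0.79 on the Th17 array.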

How the data were processed

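Per the labels' protocols, column-purified total RNA (500 ng) was amplified with an amino allyl kit and coupled to the dyes. The deposited table holds 1 log2 ratio per probe and array for 36547 probes. The unit was read from the values: on each array the repeated values lie apart by log2 of small whole-number ratios around the most repeated value, −0.85 for 110 probes on the Th1 array and −0.43 for 162 probes on the Th17 array. The platform's scanner software, background correction, normalisation, centring and numerator are not given in the sources used here, and the column medians were −0.11 and −0.05.

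Of the probes, 26926 carry 1 gene, 203 several and 9418 are unnamed here; the annotation can be old. Gene numbers matched a GRCm38.p6 list for 26774, including those of all 56 genes described. The files name no build, so coordinates are given for promoter windows alone. Probes were averaged per gene. Of the 56 genes, 38 had 1 probe and 18 had 2 to 6 (85 probes in all). The pooled SD between probes of a gene was 0.51 and 0.49 over 5886 genes, and 0.39 and 0.66 over the 18. It is the sole repeat measurement and covers no difference between samples. With 1 array per comparison no p-value was computed, and genes were counted past 2-fold (log2 of 1). Very low signal, meaning a weaker channel of 5 units or fewer, was sought as whole-number ratios within 0.01%, after a check on simulated data. Larger signals in the same ratio match as well, so a match does not establish low signal. The check took signals at their smallest whole-number ratio and did not test this point. A match was found for 1 of the 85 probes on each array, against 3.04% and 2.33% of all probes. The rule for named genes was to give values for those past 2-fold on an array or in the difference and for their ligand or receptor partners, and the others by family; values of single genes in those families, and of markers under 2-fold, were added after they were seen. The genes and lists were chosen with earlier results of these data known. Alternatives covered the placement of 0, the summary over probes, the fold, low signal and the sign. Python 3.11.15 with pandas 2.3.3 was used.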

Additional observations from a re-analysis of the deposited data

Results flagged for a closer look

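Il1b, Il1rn, Il17re, Il1r2 and Il10rb lay on opposite sides of 0 on the 2 arrays and at least 2-fold apart in the difference, the Th17 array minus the Th1 array, with Il1b at −2.62, Il1rn at −1.34, Il17re at −1.15, Il1r2 at −1.10 and Il10rb at −1.09. With 1 array per comparison the difference was not tested. The opposite sides depend on where 0 is set: centred on control genes, Il17re and Il10rb lay at −0.19 and −0.09 on the Th1 array, on the side they hold on the Th17 array.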

How the results depend on the processing

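No paired analysis was possible because each comparison has 1 array, and no replicate can be left out. Another centring adds 1 constant to all genes of an array, and each constant tried was below the 2-fold threshold, so a value past it could not change sign. Past 2-fold under every centring were 1 of 6 genes on the Th1 array, 5 of 10 on the Th17 array and 5 of 8 in the difference. A centring moves all genes of an array alike, so these counts reflect the deposited sizes and are no independent support. The same counts were not made over all genes, so no background stands beside them. Turning the sign exchanges the sides and keeps every size: the medians of receptor chains become 0.30 on the Th1 array and 0.35 on the Th17 array, and that of ligands on the Th17 array 0.31.

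Counts moved by over 1.5 times as follows, as genes, ligands and receptor chains where all are given. Centred on control genes, 12 genes and 6 receptor chains passed on the Th1 array, beside 13.4% of all genes. Centred on equal signal, 10 genes and 4 receptor chains passed there, with medians of 0.72 for ligands and 0.55 for receptor chains. With that centring 2 receptor chains passed on the Th17 array, and 13 genes and 7 ligands in the difference. The shares of all genes in these 3 comparisons were 31.5%, 10.9% and 11.6%. Taking the probe with the largest absolute value gave 5 receptor chains on the Th1 array, beside 14.6% of all genes. Genes with 1 probe alone, which are fewer by construction, gave 5, 2 and 2 on the Th17 array and 4, 2 and 2 in the difference. Among all genes with 1 probe the shares were 9.95% and 9.89%. At 1.5-fold the counts were 19, 10 and 9 on the Th1 array, 20, 8 and 11 on the Th17 array and 18, 10 and 7 in the difference. The shares of all genes were 26.0%, 20.9% and 20.5%. At 3-fold the counts were 2, 1 and 1, then 3, 2 and 1, then 2, 2 and 0. The shares of all genes were then 3.47%, 3.29% and 3.11%. The cause of the shifts between centrings was not tested. The table holds no signal level, so what signal over background limits cannot be given. The criterion for very low signal was met by 1 Il16 probe on the Th17 array and by the Il9r probe on the Th1 array. It does not establish that these signals were low.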
